A study of Mus musculus with 44 samples.

Results

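The genes described here are 10 members of the Notch signalling pathway, taken by symbol from the 20105 RefSeq identifiers of the count table. They are the ligands Jag1, Jag2 and Dll4, the receptors Notch1, Notch2, Notch3 and Notch4, and the effectors Hes1, Hey1 and Heyl, and each matched 1 identifier. RNA was read from liver nuclei of male HEP-INTACT mice, a line in which nuclei of hepatocytes carry a tag by which they can be pulled out of the pool of liver nuclei. Every mouse carried the tag, so every group shares it, and the promoter behind it, the strain and the ages are not given in the sources used here. Each of 22 mice gave 1 library of hepatocyte nuclei and 1 of whole liver nuclei. In the first diet study, 3 mice with advanced and 4 with mild steatohepatitis had eaten the FPC diet for 20 weeks, and 4 controls had eaten a low-fat diet for as long. In the second, 3 advanced and 4 mild mice had eaten CDAHFD, a choline-deficient high-fat diet, for 7 weeks, and 4 controls a low-fat diet for as long. Histology put the mice on the disease diets into the mild and advanced groups, and fibrosis set the advanced group apart, so stage was not assigned at random.

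Notch receptors are cut by proteases when a Jagged or Delta-like ligand on a neighbouring cell binds them, and the freed intracellular part enters the nucleus. There it joins the DNA-binding protein RBPJ and a Mastermind coactivator and switches on genes of the Hes and Hey families, which encode transcriptional repressors. In liver the pathway is known for bile duct formation, where Jag1 and Notch2 act, and for vessels, where Dll4 and Notch4 mark endothelium and Notch3 marks pericytes and smooth muscle.

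Library totals ran from 12135408 to 33063251 counts, and in hepatocyte nuclei of advanced CDAHFD mice they were 21920437, 12850897 and 12135408. Levels are normalised CPM, counts scaled to one library size after trimmed-mean (TMM) scaling over all 44 libraries. Without that scaling the median of all genes would be higher by 0.40 to 0.49 on the log2 scale in the comparisons of advanced with control mice. A gene was called when the adjusted p of edgeR's quasi-likelihood F-test was under 0.05, and ± gives the standard error of a log2 fold change or the SD of a level. Against whole liver nuclei, hepatocyte nuclei had 17 of 18 endothelial markers lower in every group, all 10 hepatocyte markers detected and between 0 and 6 of those 10 called higher. The libraries of 2 control mice, CDAHFD_Control_9862 and CDAHFD_Control_9867, did not follow their labelled pairs. Each library's departure from its group mean was compared over 9992 genes. Within each of these mice the hepatocyte and whole liver departures correlated by -0.22 and -0.30, whereas with the other mouse's whole liver library the correlation was 0.90 and 0.80. They are named the crosswise controls here. Both mice are controls, so a comparison of stages within a fraction holds the same libraries in any case. Where the call of a named member or other pathway gene changed without both mice, it is given with and without them.

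Among the ligands, Jag1 and Jag2 rose in hepatocyte nuclei under both diets, and Dll4 did not pass the test. Jag1 encodes a transmembrane ligand whose loss of function causes Alagille syndrome in humans. In hepatocyte nuclei of the FPC study Jag1 stood at 15.4, 14.9, 11.7 and 10.8 normalised CPM in controls, at 44, 34.2, 40.4 and 34.4 in mild mice and at 57.1, 90.7 and 67.4 in advanced mice. No library of one stage overlapped with those of another. The log2 fold change was 2.56 ± 0.19 for advanced over control mice (adjusted p = 2.4e-07), 1.61 ± 0.17 for mild over control mice (2.5e-05) and 0.95 ± 0.18 for advanced over mild mice (0.0025). In hepatocyte nuclei of the CDAHFD study Jag1 stood at 13.2, 16.8, 23 and 18.3 normalised CPM in controls, at 27.2, 22, 21.1 and 37.0 in mild mice and at 37.7, 32.5 and 39.4 in advanced mice. Advanced mice lay above every control, while mild mice overlapped with both other groups. Jag1 rose by 1.06 ± 0.21 in advanced over control mice (adjusted p = 0.0011) and by 0.60 ± 0.20 in mild over control mice (0.022). The mild call was lost when mild mouse CDAHFD_Mild_9894 (adjusted p = 0.0803), mild mouse CDAHFD_Mild_10102 (0.0501) or control mouse CDAHFD_Control_10110 (0.0632) was left out.

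The change of Jag1 differed between the diets. Under CDAHFD the change from control to advanced disease was smaller than under FPC by a log2 difference of -1.44 ± 0.29 in hepatocyte nuclei (adjusted p = 0.0042) and of -1.13 ± 0.20 in whole liver nuclei (0.0028). Jag1 was the 1 member called in this test in either fraction, beside 7.36% of 13808 genes called lower in hepatocyte nuclei and 2.97% of 14413 in whole liver nuclei. Without the crosswise controls the differences were -1.19 ± 0.30 (0.0224) and -1.16 ± 0.22 (0.00548), and Heyl was then also called in whole liver nuclei (-1.29 ± 0.36, 0.0375), and 2 members were called there without mouse CDAHFD_Control_9862 alone. In the same test 3 of 12 cholangiocyte markers were called lower in each fraction, and their part in the result was not tested. Diet and weeks of feeding differ together between the studies, so their parts cannot be told apart.

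Jag2 encodes the second Jagged ligand and was a rare transcript here. In hepatocyte nuclei of the FPC study it had 2, 2, 4 and 4 counts in controls, 9, 13, 9 and 13 in mild mice and 24, 62 and 28 in advanced mice. In normalised CPM these were 0.0966 to 0.239 in controls, 0.359 to 0.677 in mild mice and 0.768, 2.81 and 1.18 in advanced mice. The stages did not overlap, and mouse FPC_Advanced_6880 held the highest value. The log2 fold change was 3.33 ± 0.54 for advanced over control mice (adjusted p = 0.00024), 1.68 ± 0.57 for mild over control mice (0.038) and 1.65 ± 0.46 for advanced over mild mice (0.023). Without mouse FPC_Advanced_6880 the last of these was 0.97 (adjusted p = 0.163), it was 1.51 (0.0694) without mild mouse FPC_Mild_6887, and the mild call was lost when any 1 of 5 libraries (mild mice FPC_Mild_6886 and FPC_Mild_6888, control mice FPC_Control_6816, FPC_Control_6852 and FPC_Control_6952) was left out (adjusted p up to 0.0980). In the CDAHFD study Jag2 stood at 0.269, 0.486, 0.250 and 0.173 normalised CPM in controls, at 1.89, 0.985, 1.05 and 1.02 in mild mice and at 1.12, 1.02 and 1.11 in advanced mice. Mild and advanced mice lay above every control and overlapped with each other. On the log2 scale it rose by 1.88 ± 0.42 in advanced over control mice (adjusted p = 0.0023) and by 2.04 ± 0.40 in mild over control mice (0.001).

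The promoter windows of both Jagged genes are shown because each was called higher in hepatocyte nuclei of advanced over control mice under both diets. Each runs from 250 bases before to 50 after the start of the gene and comes from RefSeq on GRCm38.p6, minus strand, at chr2:137116471-137116770 for Jag1 and chr12:112929446-112929745 for Jag2. For Jag2 the start used is that of the counted span, 317 bases inside the RefSeq gene span. The Jag2 window therefore lies wholly within the RefSeq gene and does not cover sequence upstream of it. Capitals would mark the RBPJ core TGGGAA, the E-box CACGTG or the N-box CACNAG, on either strand, and neither window holds any of them.
Jag1: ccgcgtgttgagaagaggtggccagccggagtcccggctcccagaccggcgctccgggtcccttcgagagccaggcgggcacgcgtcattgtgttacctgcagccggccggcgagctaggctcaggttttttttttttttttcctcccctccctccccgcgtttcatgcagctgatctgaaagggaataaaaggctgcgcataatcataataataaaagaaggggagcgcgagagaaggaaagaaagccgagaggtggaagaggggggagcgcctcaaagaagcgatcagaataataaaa
Jag2: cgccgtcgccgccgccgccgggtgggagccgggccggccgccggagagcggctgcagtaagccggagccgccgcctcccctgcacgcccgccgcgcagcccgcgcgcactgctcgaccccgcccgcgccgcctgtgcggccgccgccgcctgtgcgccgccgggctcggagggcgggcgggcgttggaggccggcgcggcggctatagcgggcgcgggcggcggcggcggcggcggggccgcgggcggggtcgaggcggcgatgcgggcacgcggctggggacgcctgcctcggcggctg
The windows differ in base composition, with 55.7% G and C for Jag1 and 86.0% for Jag2, where the median of all promoters in the table is 52.7%. Windows were found for 7 of the 10 members (not for Hes1, Hey1 and Heyl). None of the 7 holds the RBPJ core or the E-box, which are found in 25.6% and 7.15% of all 32851 windows. No match says only that these letters are not in this window.

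Dll4, the Delta-like ligand of arterial and sprouting endothelium, was rare in hepatocyte nuclei. It stood at 0.666 to 1.07 normalised CPM in FPC controls, at 0.990 to 2.07 in mild and at 0.409 to 1.12 in advanced mice. In the CDAHFD study it stood at 0.10 to 0.942 in controls, at 0.394 to 0.993 in mild and at 0.272 to 0.718 in advanced mice. The stages overlapped under both diets and no comparison passed (adjusted p from 0.07 to 0.83). In whole liver nuclei Dll4 stood at 5.29, 6.11, 5.36 and 6.60 normalised CPM in FPC controls, at 8.44, 8.78, 9.75 and 7.50 in mild and at 9.19, 7.83 and 7.00 in advanced mice. There it rose by 0.43 ± 0.15 in advanced over control mice (adjusted p = 0.025) and by 0.53 ± 0.14 in mild over control mice (0.0082). The advanced call was lost without advanced mouse FPC_Advanced_6826 (adjusted p = 0.125) and without control mouse FPC_Control_6816 (0.0629) or FPC_Control_6952 (0.0610).

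**Figure D1:**
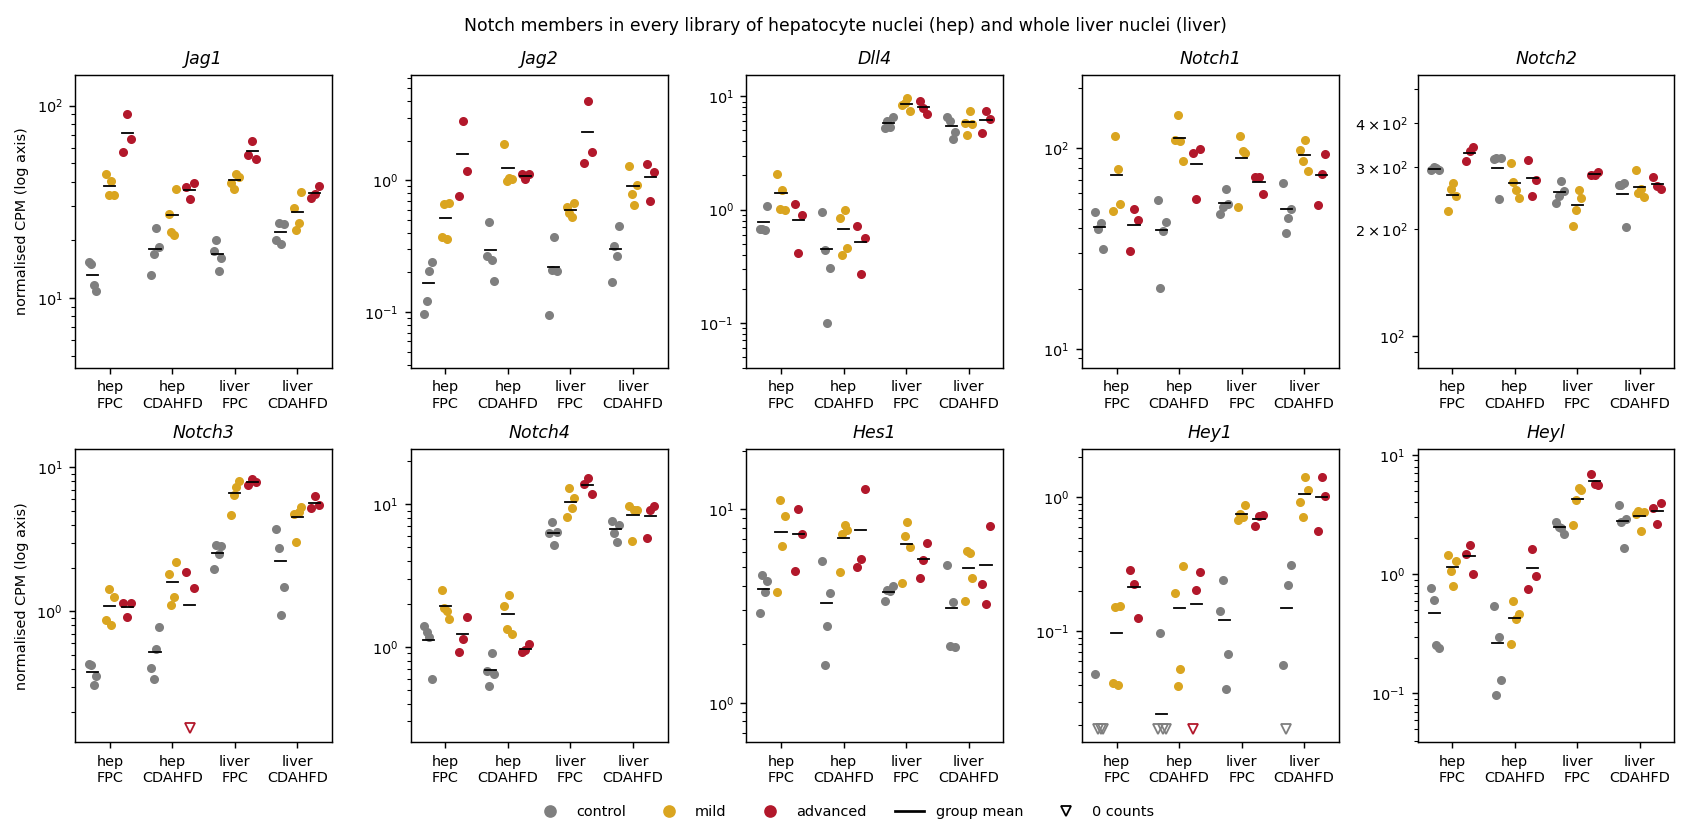
Normalised CPM (log axes) of each member in every library, with hepatocyte nuclei left of whole liver nuclei, the FPC left of the CDAHFD study, and control, mild and advanced mice from left to right. Points are libraries, bars are group means and open triangles are libraries with 0 counts. Jag1 climbs by stage in FPC hepatocyte nuclei, Notch2 stays between 203 and 343 in all 44 libraries, and Dll4, Notch3, Notch4, Hey1 and Heyl lie lower in the hepatocyte fraction.

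Of the receptors, Notch3 rose in FPC and Notch1 in CDAHFD hepatocyte nuclei of advanced over control mice, and Notch2 stood at 203 to 343 normalised CPM in all 44 libraries. Notch1, a receptor with broad roles in development and immunity, stood at 48.5, 39.9, 42.3 and 31.7 normalised CPM in hepatocyte nuclei of FPC controls, at 48.6, 115, 79.4 and 52.9 in mild mice and at 30.7, 50.2 and 43.8 in advanced mice. Mild mice lay above all controls, by as little as 48.6 against 48.5, and advanced mice overlapped with both. Its log2 fold change was 0.94 ± 0.26 for mild over control mice (adjusted p = 0.014), and advanced over control mice did not pass (0.7). In CDAHFD hepatocyte nuclei Notch1 stood at 55.5, 20.2, 38.7 and 43.2 normalised CPM in controls, at 110, 146, 109 and 87.1 in mild mice and at 95.3, 56.2 and 99.2 in advanced mice. Neither disease stage overlapped with the controls, although the lowest advanced mouse stood at 56.2 beside 55.5 in the highest control. Its log2 fold change was 1.11 ± 0.30 for advanced over control mice (adjusted p = 0.008) and 1.53 ± 0.29 for mild over control mice (0.00093). The difference of the advanced changes between the diets was not called (adjusted p = 0.13).

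The Notch1 window is shown because it held the most N-box matches of the 7 members' windows. It lies on GRCm38.p6 at chr2:26503773-26504072, minus strand, and capitals mark 3 N-box matches (CACNAG or its reverse CTNGTG), 2 of which overlap in CACTAGTG at the start of the gene.
Notch1: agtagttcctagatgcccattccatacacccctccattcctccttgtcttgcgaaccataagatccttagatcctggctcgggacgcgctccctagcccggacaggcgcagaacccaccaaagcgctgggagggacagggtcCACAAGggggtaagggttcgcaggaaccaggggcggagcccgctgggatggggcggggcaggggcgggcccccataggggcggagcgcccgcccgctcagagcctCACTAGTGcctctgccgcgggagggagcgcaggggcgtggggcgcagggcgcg
N-boxes, sites that Hes repressors are known to bind, were also matched in the windows of Notch3 (2), Notch2 (1) and Dll4 (1), and 42.5% of all windows of this length hold at least 1. A match of these letters is a description and not a bound site.

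Notch2, the receptor tied to bile duct formation, stood at 295, 301, 298 and 295 normalised CPM in hepatocyte nuclei of FPC controls, at 225, 261, 270 and 248 in mild mice and at 313, 334 and 343 in advanced mice. The stages did not overlap, with mild mice lowest and advanced mice highest. Its log2 fold change was 0.44 ± 0.10 for advanced over mild mice (adjusted p = 0.0098), and it was 0.41 (0.0565) with the libraries of these groups alone. Mild over control mice were not called (0.2), and advanced over control mice stood at 0.27 ± 0.10 (0.05), not called either. DESeq2 and 4 other settings called that difference, at 0.26 to 0.67, as did the fit without advanced mouse FPC_Advanced_6826 (0.31, adjusted p = 0.0357). The value of 0.67 came from library totals in place of TMM scaling, where the median of all genes shifts by 0.40 in this comparison. In CDAHFD hepatocyte nuclei Notch2 ranged from 244 to 319 in controls, from 245 to 309 in mild mice and from 248 to 315 in advanced mice, and no comparison passed (adjusted p from 0.4 to 0.86).

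Notch3, the receptor of pericytes and smooth muscle, was rare in hepatocyte nuclei. It stood at 0.434, 0.427, 0.308 and 0.358 normalised CPM in FPC controls, at 0.871, 1.42, 0.798 and 1.25 in mild mice and at 1.15, 0.908 and 1.14 in advanced mice. Both disease stages lay above every control and overlapped with each other. Notch3 rose by 1.59 ± 0.33 in advanced over control mice (adjusted p = 0.0016) and by 1.56 ± 0.32 in mild over control mice (0.0022). In CDAHFD hepatocyte nuclei Notch3 stood at 0.404, 0.340, 0.551 and 0.777 normalised CPM in controls, at 1.82, 1.1, 1.25 and 2.20 in mild mice and at 1.87, 0 and 1.46 in advanced mice. Mouse CDAHFD_Advanced_9845 had 0 counts beside 47 and 21 in the other advanced mice, and neither comparison with controls passed (adjusted p = 0.19 for advanced and 0.061 for mild mice).

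Notch4, a receptor of endothelium, stood at 0.597 to 1.40 normalised CPM in hepatocyte nuclei of FPC controls, at 1.56 to 2.49 in mild mice and at 0.927 to 1.61 in advanced mice. Mild mice lay above every control, with a log2 fold change of 0.86 ± 0.31 (adjusted p = 0.049). This call was lost with RLE scaling (0.0543), with no filter on low counts (0.0605) and when any 1 of 7 libraries was left out, all but control mouse FPC_Control_6816 (adjusted p up to 0.118, without control mouse FPC_Control_6953). In CDAHFD mild mice Notch4 stood at 1.95, 1.34, 2.30 and 1.23, against 0.673, 0.535, 0.901 and 0.647 in controls, a log2 fold change of 1.31 ± 0.31 (adjusted p = 0.0036). Advanced mice were not called under either diet (adjusted p = 0.6 for FPC and 0.22 for CDAHFD).

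Of the effectors, Hes1 and Heyl rose in hepatocyte nuclei of advanced mice under both diets, and Hey1 had too few counts there for the test. Hes1 encodes a repressor that is a direct Notch target in many tissues. It stood at 2.90, 4.57, 3.74 and 4.24 normalised CPM in FPC controls, at 3.73, 11.1, 6.42 and 9.17 in mild mice and at 4.8, 9.94 and 7.40 in advanced mice. Advanced mice lay above every control, and mild mice overlapped with both other groups. The log2 fold change was 1.05 ± 0.35 for advanced over control mice (adjusted p = 0.025) and 1.05 ± 0.33 for mild over control mice (0.026), and each call was lost when any 1 of 4 libraries was left out. These were mice FPC_Advanced_6880, FPC_Advanced_6904, FPC_Control_6816 and FPC_Control_6952 for the advanced call (adjusted p up to 0.120) and mice FPC_Mild_6886, FPC_Mild_6888, FPC_Control_6816 and FPC_Control_6952 for the mild call (up to 0.0793). In CDAHFD hepatocyte nuclei Hes1 stood at 5.38, 1.56, 2.50 and 3.67 normalised CPM in controls, at 4.75, 7.45, 8.21 and 7.74 in mild mice and at 5.03, 5.51 and 12.7 in advanced mice. Both disease stages overlapped with the controls through the control at 5.38. Hes1 rose by 1.26 ± 0.41 in advanced over control mice (adjusted p = 0.02) and by 1.13 ± 0.39 in mild over control mice (0.027). Without the crosswise controls these were 1.16 (0.0964) and 1.03 (0.126). Without advanced mouse CDAHFD_Advanced_9896 the first was 0.72 (adjusted p = 0.155), and the second was lost when mild mouse CDAHFD_Mild_9852, CDAHFD_Mild_9853 or CDAHFD_Mild_9894 or control mouse CDAHFD_Control_9862 or CDAHFD_Control_10113 was left out (adjusted p up to 0.0675).

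Heyl, a repressor of the Hey family, stood at 0.772, 0.610, 0.256 and 0.239 normalised CPM in hepatocyte nuclei of FPC controls, at 1.45, 1.06, 0.798 and 1.30 in mild mice and at 1.47, 1.77 and 1.01 in advanced mice. Both disease stages lay above every control. The log2 fold change was 1.68 ± 0.42 for advanced over control mice (adjusted p = 0.0052) and 1.35 ± 0.40 for mild over control mice (0.022). The mild call was lost without mild mouse FPC_Mild_6888 or control mouse FPC_Control_6952 or FPC_Control_6953 (adjusted p up to 0.0668). In CDAHFD hepatocyte nuclei Heyl stood at 0.538, 0.0972, 0.300 and 0.129 normalised CPM in controls, at 0.260, 0.591, 0.418 and 0.461 in mild mice and at 0.758, 1.63 and 0.974 in advanced mice. Advanced mice lay above every other mouse, with a log2 fold change over controls of 2.13 ± 0.55 (adjusted p = 0.0055). Heyl in whole liver nuclei of the same mice stood at 3.56, 2.62 and 3.93 in advanced mice, against 3.84, 2.76, 1.65 and 2.91 in controls, and was not called (adjusted p = 0.49). The advanced change was larger in the hepatocyte than in the whole liver fraction by 1.81 ± 0.57 (adjusted p = 0.045), 1 of 10 members called higher in this test beside 3.63% of 14315 genes. That call was lost when any 1 of mice CDAHFD_Advanced_9845, CDAHFD_Advanced_9896, CDAHFD_Advanced_10104, CDAHFD_Control_9867 and CDAHFD_Control_10113 was left out (adjusted p up to 0.196, without advanced mouse CDAHFD_Advanced_9845), without both crosswise controls (0.132) and with no filter on low counts (0.0553).

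Hey1, a repressor of endothelial and smooth muscle cells, had 17 counts over the hepatocyte libraries of advanced FPC mice (9, 5 and 3), against 1 count in controls. The ratio of normalised sums was 16.2, with a 95% interval of 2.54 to 677 that covers counting error only. Under CDAHFD there were 7 counts in advanced mice (0, 3 and 4), against 2 in controls, a ratio of 5.08 (0.967 to 50.1). Mild mice had 8 counts under FPC and 11 under CDAHFD. In whole liver nuclei Hey1 stood at 0.142, 0.243, 0.0372 and 0.0681 normalised CPM in FPC controls, at 0.683, 0.758, 0.713 and 0.873 in mild mice and at 0.613, 0.730 and 0.734 in advanced mice. All disease libraries lay above every control, with a log2 fold change of 2.36 ± 0.42 for advanced over control mice (adjusted p = 0.00036) and 2.47 ± 0.40 for mild over control mice (0.00036). Under CDAHFD the whole liver log2 fold changes were 2.66 ± 0.63 for advanced (0.003) and 2.70 ± 0.61 for mild over control mice (0.0024).

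Counted together, 5 of the 9 members tested rose in hepatocyte nuclei of advanced over control FPC mice and none fell, where 26.5% of 13498 genes were called higher. Their median log2 fold change was 1.05, beside 0.00 over all genes. Mild over control FPC mice had 7 of 9 higher (21.8% of genes), and 4 without mild mouse FPC_Mild_6886 and 3 without mild mouse FPC_Mild_6888 or control mouse FPC_Control_6952. Advanced over mild FPC mice had 3 of 9 higher (12.7%), and 1 with the libraries of these groups alone. In the CDAHFD study 5 of 9 rose in advanced over control mice (30.3% of 13277 genes; 4 of 9 without the crosswise controls) and 5 of 9 in mild over control mice (29.6%; 4 of 9 without them and 3 without mild mouse CDAHFD_Mild_9894). None of 9 was called between advanced and mild CDAHFD mice, where edgeR called 2.82% of genes, and none of 10 in whole liver nuclei (1.88%). At an unadjusted p under 0.05 there were 2 of the 9 in hepatocyte nuclei (Notch4 and Heyl) and 1 of 10 (Jag1) in whole liver nuclei, and DESeq2 called 0 in both. In whole liver nuclei 7 of 10 rose in advanced over control FPC mice (31.3% of 14129 genes), 9 of 10 in mild over control (25.0%) and 2 of 10 in advanced over mild mice (13.3%; 1 without mouse FPC_Advanced_6880). Under CDAHFD 4 of 10 rose in advanced over control mice (29.7% of 14098 genes) and 4 of 10 in mild over control mice (27.7%), and with library totals in place of TMM scaling these counts were 10 and 8.

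**Figure D2:**
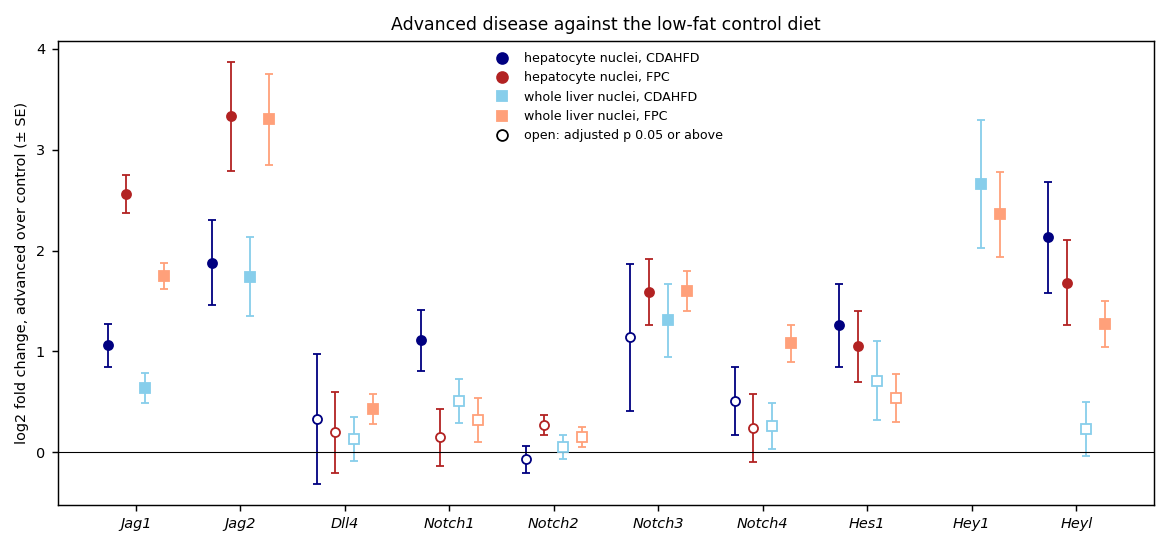
Log2 fold change of advanced over control mice for each member, with standard errors, in hepatocyte nuclei (circles) and whole liver nuclei (squares) under CDAHFD (blue shades) and FPC (red shades), where open symbols did not pass the test. The Jagged genes lie lower under CDAHFD than under FPC in both fractions, with Jag1 in hepatocyte nuclei at 1.06 under CDAHFD and 2.56 under FPC, and the diets' difference was called for Jag1 alone. Hey1 has no hepatocyte value because it was not tested there.

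In whole liver nuclei the ligands and receptors moved as follows. Jag1 stood at 55.4, 65.6 and 52.5 normalised CPM in advanced FPC mice, against 17.5, 19.9, 13.8 and 16.1 in controls, a log2 fold change of 1.75 ± 0.13 (adjusted p = 2.2e-07). Jag2 stood at 1.35, 3.98 and 1.64 in advanced FPC mice, against 0.0945, 0.208, 0.372 and 0.204 in controls (3.30 ± 0.45, 4.2e-05). Notch3 stood at 7.52, 8.33 and 7.88 in advanced FPC mice, against 1.98, 2.88, 2.49 and 2.86 in controls (1.6 ± 0.20, 1.8e-05). None of these groups overlapped. Notch4 (1.08 ± 0.18, adjusted p = 0.0002) and Heyl (1.27 ± 0.23, 0.00042) rose in advanced FPC mice too. Hes1 had an adjusted p of 0.065 there and rose in mild FPC mice (0.78 ± 0.22, 0.013). Under CDAHFD the log2 fold change of advanced over control mice was 0.64 ± 0.15 for Jag1 (adjusted p = 0.0037), 1.74 ± 0.39 for Jag2 (0.0019) and 1.31 ± 0.36 for Notch3 (0.0075). Mild over control CDAHFD mice were called for Notch1 (0.81 ± 0.20, adjusted p = 0.0049), Jag2 (1.49 ± 0.38, 0.005) and Notch3 (0.94 ± 0.34, 0.035). The mild change of Notch3 was 0.40 ± 0.26 (0.229) without the crosswise controls, and its call was also lost without any 1 of 5 libraries, mild mice CDAHFD_Mild_9853, CDAHFD_Mild_9894 and CDAHFD_Mild_10102 and control mice CDAHFD_Control_9862 and CDAHFD_Control_9867 (adjusted p up to 0.0887). Between advanced and mild FPC mice Jag1 (0.50 ± 0.12, adjusted p = 0.012; 0.42, 0.0673 without mouse FPC_Advanced_6880) and Jag2 (1.94 ± 0.39, 0.0039) rose.

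Hepatocyte and whole liver nuclei of the same mice split the members into those found at like levels in both fractions and those found mainly in whole liver. In bulk libraries fewer nuclei of a type and less RNA per nucleus cannot be told apart. Dll4 in hepatocyte nuclei stood at 5.22% to 12.7% of the whole liver level in advanced FPC mice (n = 3) and at 13.1% ± 2.25 in FPC controls (SD, n = 4). Notch4 stood at 9.25% ± 3.76 in advanced FPC mice and at 17.9% ± 6.25 in controls, Notch3 at 13.6% ± 2.34 and 15.4% ± 4.48, and Heyl at 23.4% ± 6.66 and 18.5% ± 9.14. Under CDAHFD Notch3 stood at 35.5% ± 6.98 in mild mice (n = 4) and at 33.6% ± 25.5 in controls. That control mean joins 10.8% and 12.4% in mice CDAHFD_Control_10110 and CDAHFD_Control_10113 with 58.7% and 52.5% in the crosswise controls. The shares of the crosswise controls rest on libraries that did not follow their labelled pairs. Heyl under CDAHFD stood at 36.2% ± 22.8 in advanced mice and at 3.53% to 18.2% in controls. The median over endothelial markers was 8.92% ± 0.381 in mild and 9.01% ± 1.18 in advanced CDAHFD mice, and that over stellate cell and pericyte markers 15.8% ± 2.71 and 14.3% ± 0.444. Over smooth muscle markers the median was 25.7% ± 6.68 in mild and 16.5% ± 1.43 in advanced CDAHFD mice. In the FPC study, the median over 18 endothelial markers was 9.96% ± 2.69 in advanced FPC mice and 11% ± 1.20 in controls, and that over 14 stellate cell and pericyte markers 11% ± 2.46 and 14.6% ± 2.76. Jag1 stood at 123% ± 18 in advanced FPC mice and at 78.6% ± 9.22 in controls, Hes1 at 134% ± 42.2 and 103% ± 13.9, and Notch2 at 115% ± 4.55 and 117% ± 6.80. The median over 10 hepatocyte markers was 143% ± 2.88 in advanced FPC mice and 118% ± 2.45 in controls, and that over 12 cholangiocyte markers 126% ± 18.7 and 76.3% ± 9.17.

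In the test of hepatocyte against whole liver nuclei, 5 of 10 members were lower and none higher in advanced FPC mice (17.7% of 14333 genes were called lower). These were Notch4 (-3.52 ± 0.26, adjusted p = 3e-09), Dll4 (-3.32 ± 0.29, 1.7e-08), Notch3 (-2.92 ± 0.24, 6e-09), Heyl (-2.15 ± 0.31, 1.4e-05) and Hey1 (-1.69 ± 0.45, 0.0072). The same 5 were lower in mild FPC mice (19.0% of genes), FPC controls (16.2%), advanced CDAHFD mice (23.0% of 14315 genes) and mild CDAHFD mice (27.6%). CDAHFD controls had 4 of them lower (16.4%), with Hey1 at adjusted p = 0.16. Leaving out 1 mouse could lose the Hey1 call in advanced FPC mice (adjusted p = 0.0941), FPC controls (up to 0.276) and advanced CDAHFD mice (up to 0.0530). It could also lose the Notch3 call in mild CDAHFD mice (0.0709) and CDAHFD controls (up to 0.0810). Both libraries of a mouse come from the same animal, and with the mouse as a block 8 of 10 members were called in advanced FPC mice and 8 in FPC controls. The added calls in advanced FPC mice were Notch1 (-0.78 ± 0.18, adjusted p = 0.00318), Jag2 (-0.62 ± 0.21, 0.0292) and Notch2 (0.15 ± 0.06, 0.0498), and in FPC controls Jag1 (-0.40 ± 0.10, 0.00536), Notch1 (-0.46 ± 0.16, 0.0367) and Notch2 (0.17 ± 0.05, 0.0193). The change of Jag1 from control to advanced FPC mice was larger in the hepatocyte than in the whole liver fraction by 0.67 ± 0.22, which did not pass without the block (adjusted p = 0.13). None of 10 members was called in that unblocked test (3.82% of 14333 genes were called either way), and at an unadjusted p under 0.05 there were 2, Jag1 and Notch4. Jag1 passed with the mouse as a block (0.65 ± 0.14, adjusted p = 0.00940) and by DESeq2 (0.75 ± 0.24, 0.0469), the 1 member to do so in either.

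**Figure D3:**
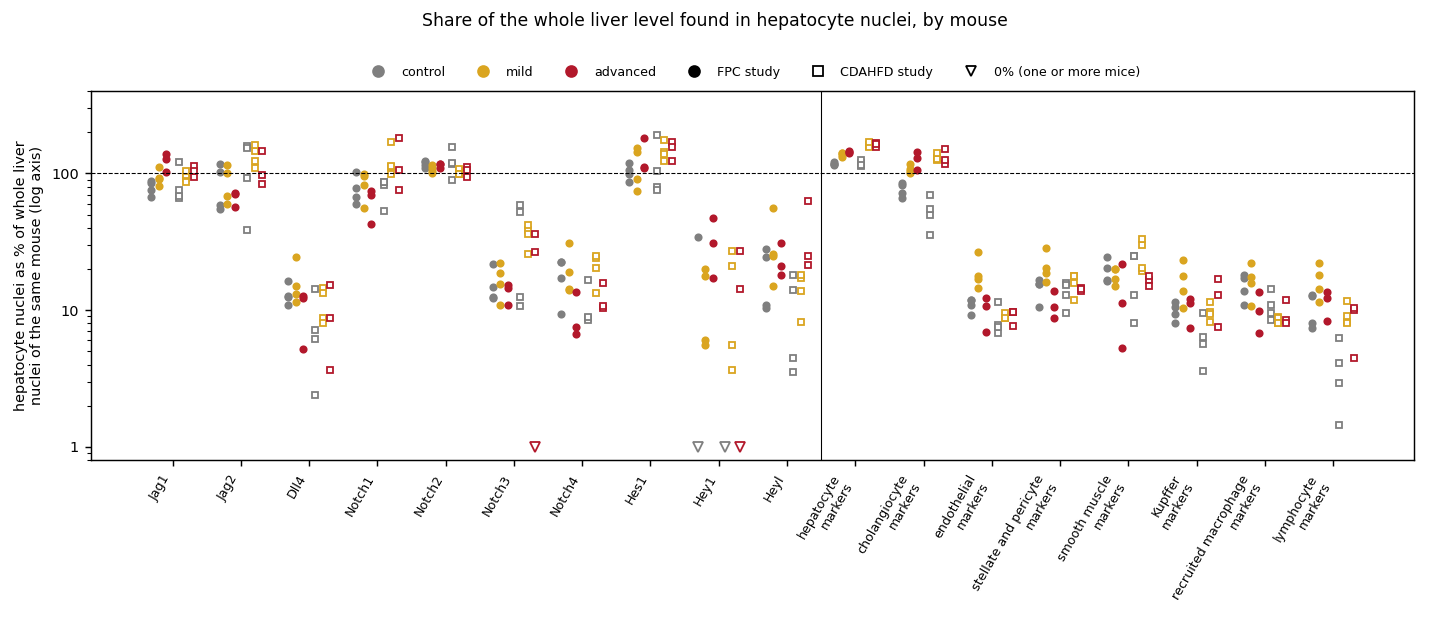
Level in hepatocyte nuclei as a percentage of the level in whole liver nuclei of the same mouse (log axis), for the members at left and the medians of cell type marker lists at right. Each point is a mouse, filled circles are the FPC and open squares the CDAHFD study, and stages run from control to advanced. Dll4, Notch3, Notch4, Hey1 and Heyl lie below the dashed line at 100%, at 0% to 62.4%, and the other 5 members lie on both sides of it, at 38.5% to 190%. The ends of that last range, Jag2 at 38.5% and Hes1 at 190%, come from crosswise control CDAHFD_Control_9867. Notch3 in mild CDAHFD mice (25.7% to 41.8%) lies above the endothelial (8.70% to 9.49%) and the stellate cell and pericyte lists (11.9% to 17.7%). It overlaps with the smooth muscle list (19.5% to 32.9%).

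Markers of other cell types moved with the stages in the hepatocyte libraries. Which nuclei held their RNA, and its part in the members' changes, was not tested. All 8 recruited macrophage markers rose in each comparison of a disease stage with controls. Their summed level in hepatocyte nuclei was 43.8 to 58.3 normalised CPM in advanced FPC mice, against 4.02 to 6.15 in controls, with Trem2 at 0 counts in controls. In advanced CDAHFD mice it was 73.6 to 83.6, against 5.52 to 9.26 in controls. Cd9 made up 56.2% of this sum on average in hepatocyte libraries. Notch4 was called in mild over control mice under both diets. Of the endothelial markers 3 of 18 rose and 1 fell in mild over control CDAHFD mice (median log2 fold change 0.28), and 16 of 18 rose in mild over control FPC mice (1.16). Their summed level was 481 to 552 normalised CPM in mild CDAHFD mice, against 525 to 670 in controls, and 554 to 710 in mild FPC mice, against 603 to 729 in controls, and Dpp4 dominates those sums. In advanced over control FPC mice 4 rose and 1 fell (median 0.09), with a sum of 297 to 469 in advanced mice. Stellate cell and pericyte markers rose in 8 of 14 in advanced FPC mice (median 0.95) and 10 of 14 in mild FPC mice (1.33), beside the rise of Notch3 and Heyl. In advanced CDAHFD mice, where Heyl rose, 6 of 12 tested rose and 1 fell (0.95). Their summed level was 135 to 191 normalised CPM in advanced FPC mice and 113 to 152 in mild mice, against 77.2 to 132 in controls, and 163 to 203 in advanced CDAHFD mice, against 102 to 229 in controls. Reln made up 73.3% of this sum on average in hepatocyte libraries. Cholangiocyte markers rose in 10 of 11 tested in advanced FPC mice (median 4.90) and 10 of 12 in advanced CDAHFD mice (4.19). Their summed level was 3317 to 4832 normalised CPM in advanced FPC mice, against 724 to 758 in controls. In advanced CDAHFD mice it was 1284 to 1772, against 602, 476, 1814 and 547 in controls. These groups overlapped through crosswise control CDAHFD_Control_9862 alone, at 1814. Pkhd1 made up 60% of the sum in hepatocyte libraries. Of 10 hepatocyte markers 8 fell in advanced FPC mice (6095 to 10382, against 14253 to 27286 in controls) and 5 in advanced CDAHFD mice (7333 to 9979, against 13468 to 27710), and none rose. Sox9 and Spp1 of the cholangiocyte list are themselves known as Notch targets.

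A share of the whole liver profile of the same mouse was also taken away from each hepatocyte library, the share being the median over endothelial markers. Such a share takes little from members at like levels in both fractions, such as Jag1 and Hes1. It also takes little from cholangiocyte markers, at 126% ± 18.7 of whole liver in advanced FPC mice. A call kept after it therefore does not say which nuclei held the RNA. After this subtraction, Jag1 (2.69 ± 0.21, adjusted p = 1.28e-06), Jag2 (3.26 ± 0.61, 0.00119) and Hes1 (1.14 ± 0.38, 0.0308) were called in advanced over control FPC mice, and Notch2 (0.32 ± 0.10, 0.0237) was added. Heyl stood at 2.0 ± 1.04 (0.152), and Notch3, Notch4 and Dll4 had too few counts left for the test. Under CDAHFD the called members in advanced mice were again Notch1 (1.22 ± 0.32, adjusted p = 0.00787), Jag1 (1.16 ± 0.23, 0.00153), Jag2 (1.92 ± 0.49, 0.00614), Hes1 (1.36 ± 0.43, 0.0192) and Heyl (3.62 ± 1.02, 0.0108). In mild over control FPC mice the count fell to 3, against 7 without the subtraction. The median was chosen after seeing the data: Dpp4, which hepatocyte nuclei hold at 171 to 627 normalised CPM, made up 66.8% of the summed endothelial level there.

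Per kilobase of counted gene body, the order of the members' levels in hepatocyte nuclei of advanced FPC mice began with Hes1 (3.02 normalised CPM per kb, range 1.97 to 4.07), Notch2 (2.41, 2.29 to 2.50) and Jag1 (2.05, 1.63 to 2.59). Hes1 overlapped with Notch2, and Notch2 with Jag1. Notch1 followed (0.906, 0.669 to 1.09) without overlap with Jag1, and the other 6 members stood at 0.0232 to 0.0870. In FPC controls Notch2 led (2.17), followed by Hes1 (1.58), Notch1 (0.885) and Jag1 (0.376), none of which overlapped with its neighbour. In whole liver nuclei of FPC controls Dll4 (0.591, range 0.535 to 0.668) stood next to Jag1 (0.480, 0.395 to 0.567) and overlapped with it. In hepatocyte nuclei of advanced CDAHFD mice the order began with Hes1 (3.17), Notch2 (2.05) and Notch1 (1.82), where Notch2 overlapped with both others, and Jag1 came next (1.04) without overlap. All values in this paragraph are levels.

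On mm10, Jag1 spans chr2:137081451-137116520 and Notch1 chr2:26457902-26503822, both on the minus strand, as is Jag2 at chr12:112908590-112929495. Notch2 (chr3:98013538-98150367) and Hes1 (chr16:30065357-30067796) lie on the plus strand. The RefSeq spans on GRCm38.p6 are chr2:119325784-119335666 for Dll4, chr17:32120820-32166896 for Notch3, chr17:34564286-34588543 for Notch4, chr3:8663359-8667038 for Hey1 and chr4:123233556-123249870 for Heyl. Of the genes in the authors' deposited table, 94.7%, with Jag1, Notch2 and Hes1 among them, have a counted length equal to the gene's full length, introns included. Notch1, Notch2, Notch3, Dll4, Jag2 and Hey1 share bases with another annotated gene, in most cases a long noncoding RNA or miRNA, and the strand setting of the counting is not given in the sources used here, so their values may hold reads of both.

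The wider pathway moved in both directions. Of 61 other Notch pathway genes, 51 were tested in hepatocyte nuclei. Advanced over control FPC mice had 7 higher and 10 lower (median log2 fold change -0.07), and advanced over control CDAHFD mice 10 higher and 16 lower (-0.14), beside 26.5% of all genes called higher and 20.4% lower under FPC and 30.3% higher and 29.2% lower under CDAHFD. Of the 53 tested in whole liver nuclei, 14 were higher and 13 lower under FPC (31.3% and 28.0% of all genes) and 14 higher and 11 lower under CDAHFD (29.7% and 25.9%). Without the crosswise controls the CDAHFD counts were 10 higher and 14 lower in hepatocyte nuclei and 14 higher and 10 lower in whole liver nuclei. Among 9 ligand and receptor modifiers 2 rose under FPC and 4 rose and 1 fell under CDAHFD. The ubiquitin ligases Neurl1a (4.31 ± 0.33 for FPC, adjusted p = 3.3e-07, and 5.05 ± 0.51 for CDAHFD, 8.7e-06) and Neurl1b (3.55 ± 0.26 and 4.38 ± 0.30), which act on Notch ligands, rose under both diets. Neurl1a stood at 14.6 ± 5.51 normalised CPM in advanced FPC mice and 0.786 ± 0.261 in controls. Under CDAHFD the fringe enzyme Lfng (2.61 ± 0.64, adjusted p = 0.0039) and the ubiquitin ligase Mib2 (0.94 ± 0.11, 2.2e-05) also passed as higher and the fucosyltransferase Pofut1 as lower (-0.52 ± 0.12, 0.0028). Their adjusted p under FPC was 0.087, 0.11 and 0.31. In the test of the change under CDAHFD against that under FPC, none of the 9 modifiers was called (adjusted p = 0.53 for Lfng, 0.15 for Mib2 and 0.3 for Pofut1). Of 6 other ligands 2 were tested. Dll1 rose under CDAHFD (1.01 ± 0.28, adjusted p = 0.0078) and stood at 0.32 ± 0.26 (0.35) under FPC, and the diets' difference was not called (0.22). Dner rose under CDAHFD (1.25 ± 0.43, 0.025) and stood at -0.77 ± 0.36 (0.098) under FPC, a difference of 2.08 ± 0.53 (adjusted p = 0.017), where 4.50% of all genes were called higher. Without the crosswise controls Dll1 (0.84 ± 0.35, 0.064) and Dner (1.37 ± 0.61, 0.079) were not called under CDAHFD, and the difference of Dner was 2.24 ± 0.63 (0.035).

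Genes of receptor turnover moved both ways. Numb, an adaptor that restrains Notch receptors, fell under FPC (-0.61 ± 0.16, adjusted p = 0.006) and under CDAHFD (-1.24 ± 0.11, 2.5e-06), and stood at 216 ± 54.7 normalised CPM in advanced FPC mice and 358 ± 25.7 in controls. Its relative Numbl rose (3.12 ± 0.35 and 3.06 ± 0.37), as did the deltex gene Dtx3 (3.31 ± 0.30 and 3.0 ± 0.28), while the ubiquitin ligase Itch fell (-0.86 ± 0.13 and -0.41 ± 0.12). Of the 11 genes 4 rose and 2 fell under FPC, with Dtx1 and Lnx1 as the other two that rose, and 2 rose and 3 fell under CDAHFD, with Nedd4 as the other that fell. Of 18 nuclear complex genes 1 rose and 6 fell under FPC, and 2 rose (Maml2 and Kat2a) and 9 fell under CDAHFD. Without the crosswise controls Tle3 was also called higher under CDAHFD (0.70 ± 0.26, adjusted p = 0.042, against 0.52 ± 0.23, 0.071 with them). Cir1, lower with them (-0.58 ± 0.17, 0.012), was then not called (-0.40 ± 0.19, 0.1). The Mastermind genes split: Maml2 rose (3.75 ± 0.27 and 2.17 ± 0.34), and Maml1 (-0.44 ± 0.10 and -0.90 ± 0.09) and Maml3 (-0.81 ± 0.27 and -1.53 ± 0.21) fell. The acetyltransferase Kat2b fell (-0.65 ± 0.12 and -1.26 ± 0.12). Rbpj itself fell under CDAHFD (-0.53 ± 0.11, adjusted p = 0.0012) and was not called under FPC (0.49). Among the cleavage genes, Furin fell under FPC (-0.76 ± 0.14, adjusted p = 0.00084) and Adam10 under CDAHFD (-0.29 ± 0.10, 0.022; -0.29 ± 0.13, 0.083 without the crosswise controls), and none rose under either diet. Hes6, a Hes family member that opposes Hes1 in neural cells, fell by 1.89 ± 0.36 under FPC (adjusted p = 0.0008) and by 1.49 ± 0.57 under CDAHFD (0.04). It was the 1 gene tested of 7 other effectors, and Hes2 and Hes5 had 0 counts in all hepatocyte libraries of advanced and control mice.

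**Figure D4:**
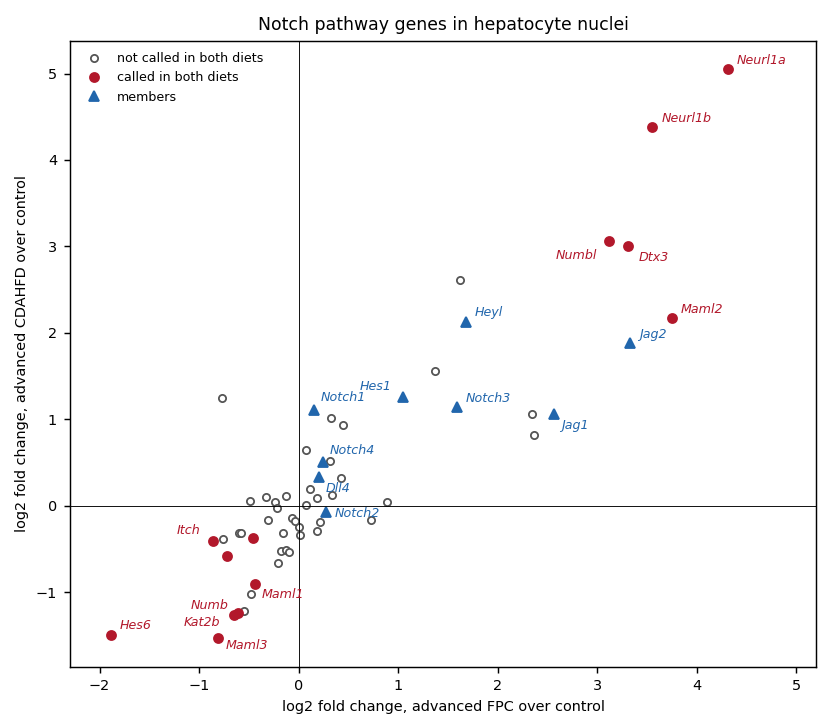
Log2 fold change of advanced over control mice in hepatocyte nuclei under FPC (x axis) and CDAHFD (y axis) for the other Notch pathway genes tested (circles, filled where called under both diets) and for the 9 members tested (triangles). The diets have their own controls. Neurl1a, Neurl1b, Numbl, Dtx3 and Maml2 lie at the upper right, and Hes6, Maml3, Kat2b and Numb at the lower left.

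The genes whose normalised levels ran most like each member over the 44 libraries were found by Pearson's r of log2(CPM + 0.5) among 12700 or 12701 genes with a mean CPM of at least 1, given as a description. The libraries share mice, diets and fractions. Dll4 ran closest with Coro2b, Eng and Ppp1r16b (0.98 each), Notch4 with Col5a1 (0.98), Egfl7 and Shank3 (0.97 each), and Notch3 with Mxra8 (0.95), Emilin1 and Pdgfrb (0.94 each). Heyl ran closest with Cachd1 and Srgap1 (0.95 each) and Elk3 (0.94), and Hey1 with Strip2, Gpr35 and Plau (0.91 each). Jag1 ran closest with Dab1 and Kcnip4 (0.94 each) and Fstl4 (0.93), and Jag2 with Ubd (0.90), Bzrap1 and Igsf9 (0.89 each). The values were lower for Notch1 (Coro1b, 0.87), Hes1 (Spon2, 0.78) and Notch2 (8430419L09Rik, 0.75).

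The authors' deposited table of hepatocyte comparisons holds 5 of the members, Notch1, Notch2, Jag1, Jag2 and Hes1. In its 30 values the log2 fold changes lay within 0.07 of those computed here, and no call at an adjusted p under 0.05 differed.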

How the data were processed

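Nuclear RNA of 22 mice (50 to 100 ng per library, stranded kit without poly-A selection, 50-base paired ends, per the labels) was read in 44 libraries. Each sample's deposited file holds raw counts per RefSeq identifier, made by the authors. The submitters' processing notes name mm10, STAR 2.4.2a and DESeq2 1.24.0; the counting tool and its strand setting are not given in the sources used here. The authors' deposited table of hepatocyte comparisons holds log2 fold changes and adjusted p-values and was used for gene symbols, lengths and a side-by-side check.

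Counts were fitted with edgeR 4.0.16 (limma 3.58.1, R 4.3.3): TMM scaling, filterByExpr, robust quasi-likelihood F-test and Benjamini-Hochberg adjustment over all genes tested, with a threshold of 0.05. Libraries of 1 diet and fraction entered each comparison of stages, those of 1 diet each comparison of fractions, and those of 1 fraction each comparison of diets. The mice are separate animals, and replicates of a group differed more than counting noise allows (a chi-square over genes of 20.0 to 272 per degree of freedom). The 2 libraries of a mouse come from the same animal; each hepatocyte library correlated best with its own partner in 20 of 22 mice. Alternatives were DESeq2 1.42.0, RLE scaling, other filters, the compared groups alone, the mouse as a block, an endothelial share subtracted and each mouse left out. Library totals, the fits without control mice CDAHFD_Control_9862 and CDAHFD_Control_9867 and the median endothelial share were added after seeing the data. The fit was tested on simulated data with known changes.

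The members, gene lists and marker lists were chosen with earlier results of these data known. Named are all members, up to 4 other pathway genes per role called in hepatocyte nuclei under both diets (largest mean change) and the 3 genes most correlated with each member. Pathway genes called under 1 diet, those whose call changed without the crosswise controls, those at 0 counts and Rbpj were named after their values were seen.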

Additional observations from a re-analysis of the deposited data

Results flagged for a closer look

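Of 80 sets of a member and a group of 4 mice, 7 held a library far from the other 3; chance flags about 1 in 20 such sets. All are normalised CPM. Notch2 stood at 244 in hepatocyte nuclei of CDAHFD control mouse CDAHFD_Control_9862, where the others stood at 316 to 319, and at 203 in whole liver nuclei of CDAHFD control mouse CDAHFD_Control_9867, where the others stood at 267 to 270. These are the mice whose libraries ran crosswise over all genes, and the low Notch2 level falls in 1 library of each. Notch4 stood at 5.55 in whole liver nuclei of mild CDAHFD mouse CDAHFD_Mild_9852 (others 9.15 to 9.66). Jag2 stood at 1.89 in hepatocyte nuclei of mild CDAHFD mouse CDAHFD_Mild_10102 (others 0.985 to 1.05). Dll4 stood at 1.07 in hepatocyte nuclei of FPC control mouse FPC_Control_6953 (others 0.666 to 0.676). Hey1 stood at 0.0483 in hepatocyte nuclei of FPC control mouse FPC_Control_6816, which was 1 count, and at 0.0972 in those of CDAHFD control mouse CDAHFD_Control_10113, which was 2 counts, where all others had 0.

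A change that differed between groups was found for 2 members. Heyl changed more in the hepatocyte than in the whole liver fraction of advanced CDAHFD mice (a log2 difference of 1.81). Jag1 changed less under CDAHFD than under FPC, by -1.44 in hepatocyte nuclei and -1.13 in whole liver nuclei.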

How the results depend on the processing

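No called member changed direction under any alternative run. In hepatocyte nuclei of FPC mice, subtracting an endothelial share left 3 members called in advanced over control mice (5 without it) and 1 in mild over control mice (7 without it), and the median share left 3 in mild over control mice; fewer counts remain after subtraction. With the compared groups alone, 1 member was called in advanced over mild FPC mice (3 otherwise). Library totals called 10 members in advanced and 8 in mild over control CDAHFD whole liver nuclei (4 each with TMM), where the median of all genes shifts by 0.47 and 0.38. With the replicate block, 8 members were called between fractions in advanced FPC mice and 8 in FPC controls (5 each without it), and 1 rather than 0 in the test of whether the change differed between fractions under FPC, as by DESeq2 (1). The block changed no other count by over 1.5 times. The same test under CDAHFD called 0 with no filter on low counts and 0 without the crosswise controls CDAHFD_Control_9862 and CDAHFD_Control_9867 (1 otherwise). The diet difference in whole liver nuclei called 2 without those mice (1 otherwise). The cause was not tested.

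Leaving out 1 mouse at a time gave these ranges of members called. Hepatocyte FPC comparisons gave 4 to 6 for advanced over control, 3 to 6 for mild over control and 2 to 4 for advanced over mild; hepatocyte CDAHFD comparisons gave 4 to 6, 3 to 5 and 0. Whole liver comparisons gave 6 to 7, 8 to 9 and 1 to 3 under FPC and 4 to 6, 3 to 5 and 0 under CDAHFD. Comparisons of hepatocyte with whole liver nuclei gave 4 to 5 in advanced FPC mice, 5 in mild FPC mice and 4 to 5 in FPC controls. Under CDAHFD the fractions gave 4 to 5 in advanced mice, 4 to 5 in mild mice and 3 to 5 in controls. The test of the change between fractions gave 0 under FPC and 0 to 1 under CDAHFD, and the diet difference 1 in hepatocyte and 1 to 2 in whole liver nuclei. Of the single-member values under these fits 466 kept direction and side of the threshold, 63 lost the call and 1 gained it. Depth limits Hey1 and Jag2 most, with 1 and 12 counts over the 4 hepatocyte libraries of FPC controls.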
